A study of Homo sapiens with 90 samples.

Results

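Fresh differentiated HepaRG cells at day 44 were compared with fresh differentiated HepaRG cells at day 30, in parental cells and in cells stably transduced with a lentivirus carrying cytochrome P450 2D6 (CYP2D6). The comparison takes every library titled fresh differentiated, without DMSO, day 30, and every library titled fresh differentiated, with DMSO, day 44. That gave 12 of the 90 libraries of the series, and 11 of them were used. The day 30 group held 2 parental and 3 transduced libraries, and the day 44 group held 3 of each. A further parental library of day 30 held 505 counts and was left out, because the rule requires 0.25 times the median total, or 483307 counts. HepaRG is a human hepatic progenitor cell line. Per the labels' protocols, the cells were grown with insulin and hydrocortisone and then differentiated with dimethyl sulfoxide (DMSO), and this text is given for the cells labelled without DMSO at day 30 as well. At day 44 the cells carried the label with DMSO. Day, DMSO label and time in culture change together between the 2 groups and cannot be told apart. The sources used here do not say whether replicates a, b and c were separate cultures, so p-values measure the spread between these libraries, which may be technical. They also do not say whether the transduced line is 1 clone, or which promoter drives the transgene.

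HepaRG cells can become hepatocyte-like and biliary-like cells, and DMSO holds them in the hepatocyte-like state and raises drug-metabolising enzymes. When hepatocytes are detached, replated or otherwise stressed, immediate-early transcription factors, chemokines and targets of the mechanosensitive coactivator YAP are known to rise within hours, while liver-specific genes decline. Hepatocytes in a settled culture rarely divide and spend much of their transcription on plasma proteins and on enzymes of lipid, amino acid and drug metabolism.

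Total counts of the 11 libraries ran from 809061 to 2438457, and the usable libraries of the whole series ran from 723391 to 3882866. CYP2D6 was at 20 to 28 counts in the transduced libraries of day 30 and 17 to 34 counts in those of day 44, against 0 to 1 count in every parental library, which matches the labels. Of the hepatocyte markers, ALB, APOA1, TTR, SERPINA1, CYP3A4 and HNF4A were detected in all 11 libraries, with summed levels of 47190 to 67090 CPM (counts per 1e6 counts) at day 30 and 57820 to 89900 CPM at day 44. The biliary markers summed to 241 to 281 CPM at day 30 and 216 to 288 CPM at day 44, most of it KRT19, while EPCAM was at 0 in all 11 libraries and KRT7 in 3. The other marker lists summed to at most 51.9 CPM for mesenchymal, 26.0 CPM for endothelial and 89.9 CPM for leukocyte genes. Of these, VIM, COL1A2, CDH5, STAB2, PTPRC and TYROBP were at 0 in 6 to 10 of the 11 libraries. In contrast, ACTA2, PDGFRB, KDR, CD14 and CD68 were detected in all 11. Their means were 34.0, 3.43, 15.9, 24.7 and 45.7 CPM at day 30 and 33.3, 3.58, 15.9, 22.6 and 42.4 CPM at day 44. In bulk RNA, fewer cells of a type and less RNA per cell cannot be told apart.

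Principal components of the 11 libraries separated the days on the second component, with 33.8% of the variance, and not on the first, with 40.7%. The first followed a component of variation that also runs within the groups of the whole series. A score summarised it as the mean log2(CPM + 1) of the 100 genes with its largest weights of the same sign. Its correlation with the first component was -0.99 over the 11 libraries, a description only. The score was 4.81 and 4.71 in the parental and 6.82, 7.10 and 6.96 in the transduced libraries of day 30. At day 44 it was 4.79, 4.75 and 6.80 in the parental and 6.69, 7.23 and 5.59 in the transduced libraries, so replicate c of each line lay toward the other line while its CYP2D6 count matched its label. With the score as a covariate, 1701 of the 1702 genes called below remained called with the same sign.

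**Figure D1:**
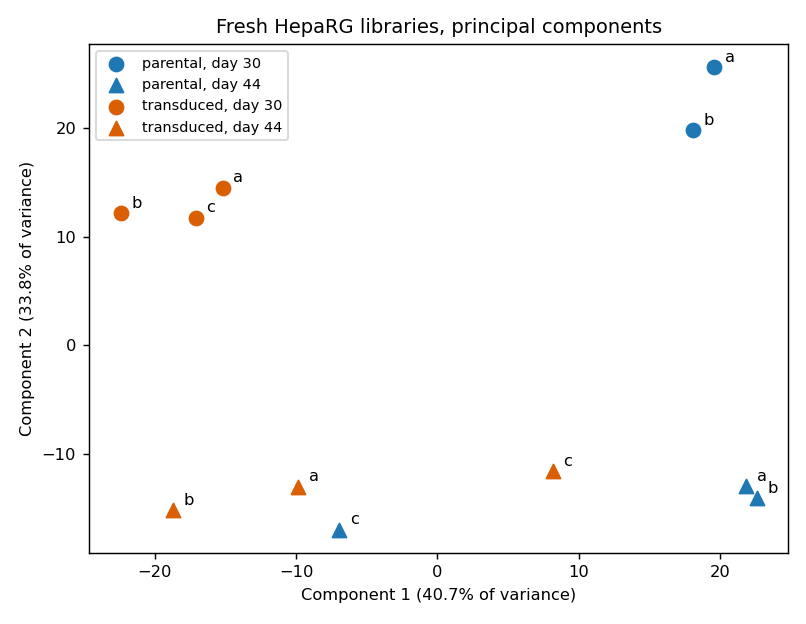
Principal components of the 11 libraries from log2 CPM; each point is a library, with its replicate letter, circles for day 30 and triangles for day 44, blue for parental and orange for transduced cells. All day 30 libraries lie above 0 on component 2 (33.8% of the variance) and all day 44 libraries below it, while component 1 (40.7%) does not order the days.

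Transcript length also moved with day. Genes with a longest transcript of at least 5893 bases, the longest 20% of those tested, took 7.25% to 8.26% of the counts at day 30 and 5.65% to 6.95% at day 44, without overlap. The median difference between the days was log2 -0.17 in those and 0.17 in the shortest 20% (at most 1867 bases), and the correlation of length with the difference was -0.25 (Spearman) over 10104 genes. Genes are not independent replicates, and this is a description. The median of each gene list is therefore also given relative to genes of like length, and the part of transcript length in single genes was not tested.

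Between day 30 and day 44, 20 of 24 immediate-early genes and 23 of 36 cell cycle genes fell, while 20 of 37 plasma protein genes and 16 of 33 urea cycle and amino acid genes rose. Of 10467 genes tested with edgeR's quasi-likelihood test, genotype as a covariate and Benjamini-Hochberg adjustment at 0.05, 835 were higher at day 44 (7.98%) and 867 were lower (8.28%). The falls were the larger changes: 319 genes (3.05%) were lower by more than 2-fold and 92 (0.879%) were higher by more than 2-fold. The median over all genes tested was log2 -0.02. Of the 1702 called genes, 1700 had the same sign in both genotypes. The day 30 and day 44 libraries did not overlap for 456 of the genes called higher and 408 of those called lower. Over all genes tested they did not overlap for 484 (4.62%) with day 44 above and 440 (4.20%) with day 44 below.

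Among called genes averaging 20 CPM or more, the largest falls included transcription factors (FOSB, FOS, HES1, ATF3, KLF6), secreted signals (IGFBP1, EDN1, CCL20, CXCL8), the pseudokinase TRIB1 and TCIM. The groups were apart for each of them. The largest rises included THRSP, FABP1, HULC, DAO, MIR210HG, GPX2, CYP2E1, AGXT, NR1I3, CNPY3-GNMT and PIPOX, most of them genes of lipid, amino acid and drug metabolism. The groups were apart for each of these except MIR210HG and NR1I3. CNPY3-GNMT is a read-through gene that overlaps GNMT, so reads of the pair may not be told apart. Members of the gene lists that are named only as part of a count were chosen after their values were seen.

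**Figure D2:**
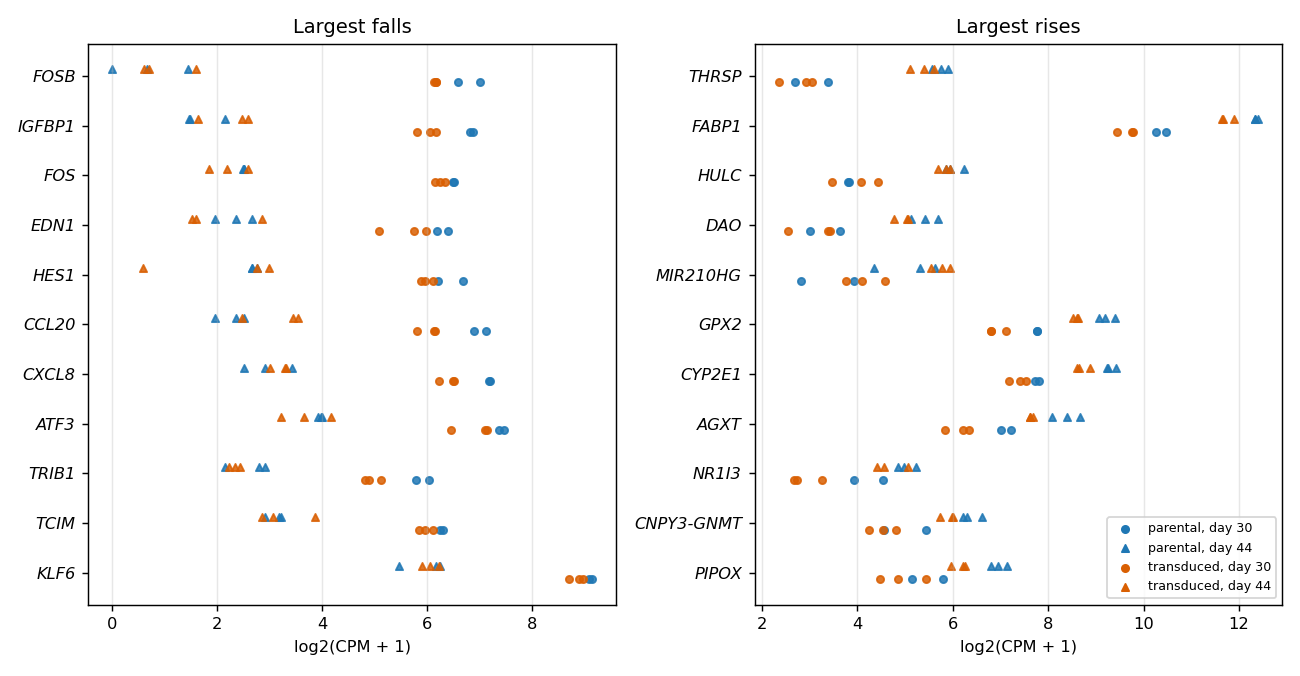
Levels of the largest falls (left) and rises (right) named in the text as log2(CPM + 1) in each of the 11 libraries, circles for day 30, triangles for day 44, blue for parental and orange for transduced cells. The days do not overlap for any of these falls; FOSB lies at 68.8 to 128 CPM at day 30 and at 0 to 2.01 CPM at day 44.

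The immediate-early genes fell together. They encode transcription factors and feedback phosphatases that are switched on within minutes by growth signals and stress without new protein synthesis. Of 24 tested members, 20 were lower, 0 were higher, and all 24 had a difference below 0, with a median of log2 -2.24 and of -2.26 relative to genes of like length. The upstream sequences of 4 members, DUSP1, FOSB, FOS and ATF3, are shown, as the named genes with the smallest p among lists that moved together. Each is the 250 bases before the RefSeq start site (GRCh38.p14), read 5′ to 3′ on the gene's strand. DUSP1 is read from chr5:172771196-172771445 (minus strand), FOSB from chr19:45467746-45467995 (plus strand), FOS from chr14:75278578-75278827 (plus strand) and ATF3 from chr1:212565157-212565406 (plus strand). Capitals mark matches to the 6 motifs searched on both strands: GCGTG for AhR, TGCACNC for the metal-response factor, CAAAGTCCA for HNF4A, GGAATG for TEAD, TGACGTCA for CREB and TTTGGCGC for E2F.
DUSP1: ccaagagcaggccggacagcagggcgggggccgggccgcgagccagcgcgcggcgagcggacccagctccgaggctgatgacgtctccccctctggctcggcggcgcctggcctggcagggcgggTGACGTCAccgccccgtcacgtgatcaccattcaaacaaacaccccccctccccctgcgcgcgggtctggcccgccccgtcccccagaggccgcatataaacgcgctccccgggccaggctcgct
FOSB: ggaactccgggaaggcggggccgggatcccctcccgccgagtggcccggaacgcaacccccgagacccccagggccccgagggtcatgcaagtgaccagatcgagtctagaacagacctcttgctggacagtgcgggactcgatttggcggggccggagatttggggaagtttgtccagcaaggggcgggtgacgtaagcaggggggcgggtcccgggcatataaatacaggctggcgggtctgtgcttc
FOS: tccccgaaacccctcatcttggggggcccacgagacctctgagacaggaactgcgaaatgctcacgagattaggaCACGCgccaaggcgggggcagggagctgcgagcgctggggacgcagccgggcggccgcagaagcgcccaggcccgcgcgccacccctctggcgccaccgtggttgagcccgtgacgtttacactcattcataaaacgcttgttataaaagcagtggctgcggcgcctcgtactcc
ATF3: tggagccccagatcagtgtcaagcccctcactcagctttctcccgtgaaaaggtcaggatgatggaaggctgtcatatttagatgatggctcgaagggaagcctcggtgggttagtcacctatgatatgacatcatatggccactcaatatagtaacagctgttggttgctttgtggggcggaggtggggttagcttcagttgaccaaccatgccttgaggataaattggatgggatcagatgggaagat
TGACGTCA lies 125 to 118 bases before the start of DUSP1, and the reverse complement of GCGTG lies 175 to 171 bases before that of FOS. No match was found in these windows of FOSB and ATF3, and no 2 matches overlapped. Among all 27305 upstream windows, 1.77% hold TGACGTCA and 31.9% hold GCGTG on either strand. Among the 8351 windows of tested genes, the shares are 2.93% for TGACGTCA and 46% for GCGTG. Of the 20 lower immediate-early genes, 15 had a window, and TGACGTCA was in 2 and GCGTG in 7 of them. Over the tested genes with a window, CAAAGTCCA was in 9 of 672 called higher (1.34%), 2 of 697 called lower (0.287%) and 23 of all 8351 (0.275%). In the same order, the shares were 44.3%, 43.8% and 46% for GCGTG, and 8.93%, 8.03% and 9.26% for TGCACNC. For GGAATG they were 8.63%, 11.2% and 9.56%, for TGACGTCA 2.08%, 3.59% and 2.93%, and for TTTGGCGC 1.19%, 1.29% and 0.862%. These shares were not compared by a test. A match is a description of the letters only. A window was found for 74 of the 92 named genes.

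FOSB, a partner of JUN in the AP-1 transcription factor, stood at 128 and 95.6 CPM in the parental and 68.8, 70.5 and 71 CPM in the transduced libraries at day 30. FOSB ranged from 0 to 2.01 CPM (median 0.607) at day 44 (log2 -6.46 ± 0.27 SE, adjusted p = 1.2e-17). FOS, the best known AP-1 member, was at 88.6 and 90.2 CPM in the parental and 75.01, 70.1 and 79.5 CPM in the transduced libraries at day 30. FOS ranged from 2.60 to 4.99 CPM (median 4.65) at day 44 (log2 -4.29 ± 0.18 SE, adjusted p = 1.2e-17). DUSP1, a phosphatase that switches off stress-activated kinases, was at 331 and 406 CPM in the parental and 271, 276 and 234 CPM in the transduced libraries at day 30. DUSP1 ranged from 36.1 to 55.96 CPM (median 45.01) at day 44 (log2 -2.78 ± 0.11 SE, adjusted p = 9.8e-18). These 3 genes were high in all 5 libraries of day 30 and low in all 6 of day 44, in both genotypes. ATF3, a stress-induced transcription factor, had levels of 164 and 175 CPM in the parental and 136, 141 and 86.8 CPM in the transduced libraries at day 30. ATF3 ranged from 8.33 to 16.9 CPM (median 14.5) at day 44 (log2 -3.42 ± 0.16 SE, adjusted p = 8.5e-17). KLF6, a zinc-finger factor induced by injury, had levels of 564 and 544 CPM in the parental and 471, 498 and 415 CPM in the transduced libraries at day 30. KLF6 ranged from 43 to 74.5 CPM (median 67.97) at day 44 (log2 -2.96 ± 0.12 SE, adjusted p = 2.8e-12). EGR1, named after its values were seen as the most abundant member lower at day 44, varied more, with 680.4 ± 328 CPM (SD, n = 5) at day 30 and 114 ± 75.7 CPM (SD, n = 6) at day 44 (log2 -2.40 ± 0.42 SE, adjusted p = 0.00507).

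At the intermediate day 32 these genes were already low. FOS was at 1.85 ± 1.18 CPM at day 32 without DMSO, 0.585 ± 0.789 CPM at day 32 with DMSO and 2.51 ± 2 CPM at day 37 (SD, n = 6 each). DUSP1 was at 28.7 ± 5.16 CPM at day 32 without DMSO, 35 ± 7.33 CPM at day 32 with DMSO and 29.99 ± 5.16 CPM at day 37 (SD, n = 6 each). The mean log2(CPM + 1) of the list was 5.15 ± 0.10 (SD, n = 5) at day 30, 2.86 ± 0.18 at day 32 without DMSO, 2.70 ± 0.20 at day 32 with DMSO, 2.69 ± 0.07 at day 37 and 3.01 ± 0.10 at day 44 (SD, n = 6 each). These levels are descriptions, and the steps between these days were not tested here.

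**Figure D3:**
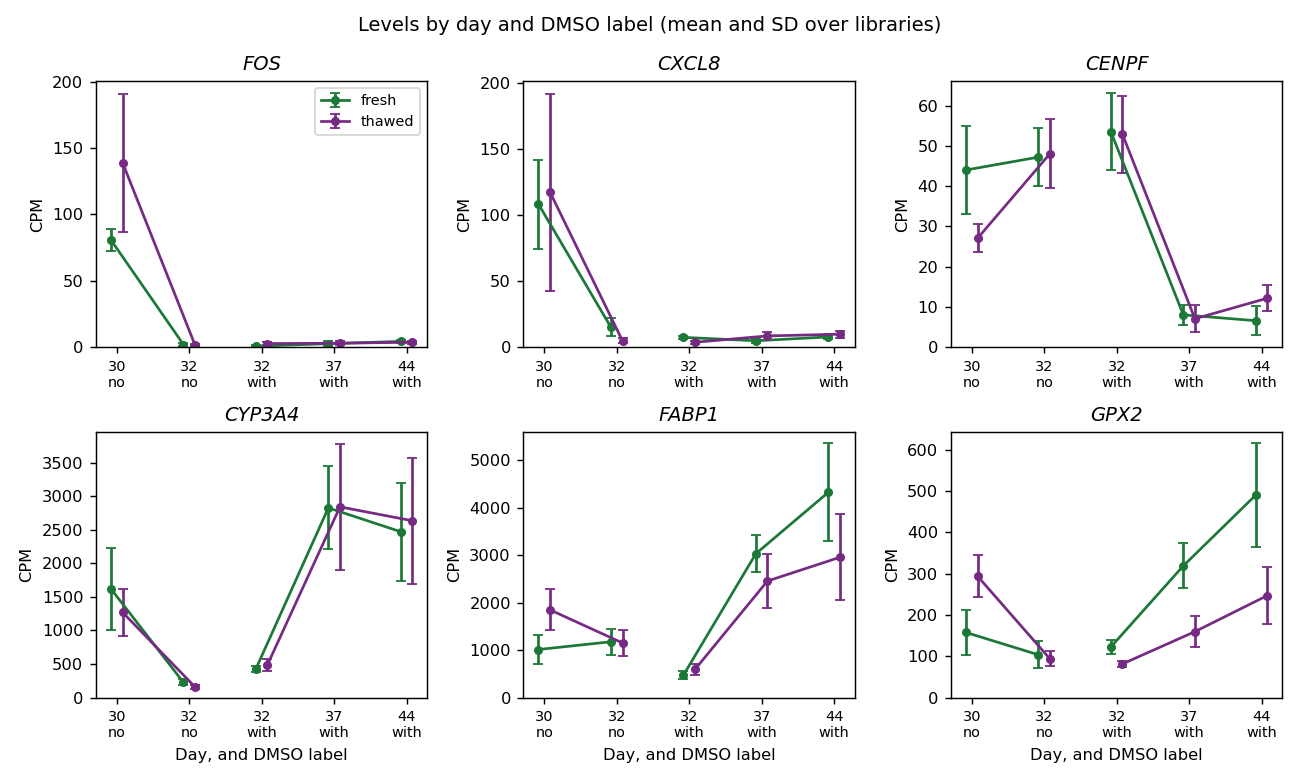
Mean level in CPM with SD at each day and DMSO label for 6 genes, in fresh (green) and thawed (purple) cells, 5 fresh libraries at day 30 and 6 in every other group; lines join days of the same DMSO label. FOS and CXCL8 are highest at day 30, CENPF stays high to day 32, and CYP3A4, FABP1 and GPX2 are highest at day 37 or 44 in fresh cells.

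Chemokines and feedback inhibitors of the NF-kB pathway fell as well. Of 17 tested genes, 13 were lower and 1 was higher, with a median of log2 -1.64 (-1.60 relative to genes of like length). CXCL8, the neutrophil chemokine interleukin 8, was at 143 and 146 CPM in the parental and 88.6, 73.9 and 90.1 CPM in the transduced libraries at day 30. CXCL8 ranged from 4.72 to 9.75 CPM (median 7.89) at day 44 (log2 -3.82 ± 0.18 SE, adjusted p = 1.7e-16). CXCL2, of the same chemokine family, was at 136 and 151 CPM in the parental and 103, 96.1 and 109 CPM in the transduced libraries at day 30. CXCL2 ranged from 12.4 to 30.4 CPM (median 19) at day 44 (log2 -2.63 ± 0.16 SE, adjusted p = 7.1e-13). NFKBIA, which encodes the inhibitor that holds NF-kB in the cytoplasm, was at 262 and 283 CPM in the parental and 183, 163 and 173 CPM in the transduced libraries at day 30. NFKBIA ranged from 53.1 to 86.6 CPM (median 69.1) at day 44 (log2 -1.64 ± 0.12 SE, adjusted p = 4.6e-12). In all 3 genes the days did not overlap. CCL20, a lymphocyte-attracting chemokine, was at 55.2 to 138 CPM at day 30 and 2.87 to 10.6 CPM at day 44, with differences of log2 -5.02 in the parental and -2.97 in the transduced cells (log2 -3.83 ± 0.34 SE, adjusted p = 1.6e-05 over both). The one member that rose was IL32, a cytokine, named after its values were seen, with 344 ± 30.8 CPM (SD, n = 5) at day 30 and 565 ± 77.8 CPM (SD, n = 6) at day 44 (log2 0.69 ± 0.08 SE, adjusted p = 5.8e-08). The summed level of the leukocyte markers was 54.1 to 89.9 CPM at day 30 and 51.7 to 74.5 CPM at day 44. Of these markers, PTPRC was at 0 in 7 libraries and TYROBP in 10, while CD14 and CD68 were detected in every library.

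Other secreted and signalling genes among the largest falls had the same pattern. IGFBP1, a hepatocyte protein that binds insulin-like growth factors and is repressed by insulin, was at 112 and 115 CPM in the parental and 54.8, 70.5 and 65.7 CPM in the transduced libraries at day 30. IGFBP1 ranged from 1.77 to 4.99 CPM (median 2.76) at day 44 (log2 -4.73 ± 0.23 SE, adjusted p = 4.1e-16). EDN1, the precursor of the vasoconstrictor endothelin, was at 82.7 and 72.2 CPM in the parental and 62.2, 33.03 and 52.7 CPM in the transduced libraries at day 30. EDN1 ranged from 1.87 to 6.25 CPM (median 3.50) at day 44 (log2 -4.01 ± 0.25 SE, adjusted p = 9.8e-14). HES1, a repressor downstream of Notch, was at 102 and 72.8 CPM in the parental and 61.4, 67.9 and 57.6 CPM in the transduced libraries at day 30. HES1 ranged from 0.502 to 6.87 CPM (median 5.52) at day 44 (log2 -3.92 ± 0.24 SE, adjusted p = 1e-12). None of these genes had a day 44 library within the day 30 range. TRIB1 was at 27.2 to 64.3 CPM at day 30 and 3.44 to 6.49 CPM at day 44 (log2 -3.19 ± 0.22 SE, adjusted p = 2.1e-12), and TCIM at 55.99 to 78.2 CPM at day 30 and 6.24 to 13.6 CPM at day 44 (log2 -2.99 ± 0.19 SE, adjusted p = 1.6e-13). Outside the largest falls, a member of the fatty acid oxidation list, PDK4, fell as well. PDK4, a kinase that blocks entry of pyruvate into the citric acid cycle, was at 24.1 to 61.4 CPM at day 30. At day 44 it was at 4.17 to 8.26 CPM (log2 -2.68 ± 0.22 SE, adjusted p = 1.3e-10).

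The cell cycle genes fell, with 23 of 36 tested genes lower, 0 higher and a median of log2 -1.23 (-1.30 relative to genes of like length). CENPF, a kinetochore protein made in G2 and mitosis, was at 62.6 and 41.5 CPM in the parental and 42.9, 39.7 and 33.7 CPM in the transduced libraries at day 30. CENPF ranged from 3.54 to 13.6 CPM (median 5.36) at day 44 (log2 -2.67 ± 0.26 SE, adjusted p = 8.2e-09). NUSAP1, a spindle protein, was at 81.5 and 60.7 CPM in the parental and 80.8, 114 and 117 CPM in the transduced libraries at day 30. NUSAP1 ranged from 15.3 to 37.5 CPM (median 20.98) at day 44 (log2 -1.94 ± 0.18 SE, adjusted p = 1.1e-08). RRM2, the ribonucleotide reductase subunit made in S phase, was at 74.4 and 93.8 CPM in the parental and 125, 188 and 163 CPM in the transduced libraries at day 30. RRM2 ranged from 24.8 to 71.4 CPM (median 35.4) at day 44 (log2 -1.61 ± 0.14 SE, adjusted p = 5.6e-10). The days were apart for all 3, and for RRM2 the transduced libraries were the higher ones at day 30. The cycling markers MKI67, TOP2A and CDK1 summed to 68.6 to 79.1 CPM at day 30 and 9.43 to 24.1 CPM at day 44. At day 32 CENPF and RRM2 were still well above their day 44 levels. CENPF was at 47.3 ± 7.30 CPM at day 32 without DMSO, 53.6 ± 9.60 CPM at day 32 with DMSO and 7.999 ± 2.50 CPM at day 37 (SD, n = 6 each), and RRM2 was at 96.2 ± 11.3 CPM at day 32 without DMSO, 201 ± 70.7 CPM at day 32 with DMSO and 40.2 ± 12 CPM at day 37 (SD, n = 6 each).

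Genes of actin, YAP and TGF-beta signalling were lower in 11 and higher in 3 (ACTG1, TAGLN2 and PFN1) of 37 tested, with a median of log2 -0.35. Over the 35 with a transcript length the median was -0.30, and -0.19 relative to genes of like length. Without the parental day 30 replicate b, 7 were lower. CCN1, a matricellular protein and direct YAP target, was at 169 and 155 CPM in the parental and 153, 157 and 117 CPM in the transduced libraries at day 30. CCN1 ranged from 15.9 to 26.4 CPM (median 19.7) at day 44 (log2 -2.88 ± 0.14 SE, adjusted p = 1.7e-16). CCN2, its relative, was at 158 and 158 CPM in the parental and 161, 135 and 116 CPM in the transduced libraries at day 30. CCN2 ranged from 15.9 to 33.7 CPM (median 20.9) at day 44 (log2 -2.58 ± 0.16 SE, adjusted p = 1.1e-11). Both targets were high in every day 30 library. Of 24 tested mesenchymal and matrix genes, 10 were lower and 2, SPARC and S100A11, higher (median log2 -0.36, and -0.34 relative to genes of like length). TGFBI, a TGF-beta-induced matrix protein, was at 64.9 to 81.2 CPM at day 30 and 28.9 to 47.2 CPM at day 44 (log2 -0.98 ± 0.14 SE, adjusted p = 4.4e-06). LAMA3, a laminin chain of basement membrane, was at 36.6 to 42.5 CPM at day 30 and 11.2 to 20.8 CPM at day 44 (log2 -1.22 ± 0.18 SE, adjusted p = 7.9e-06). FN1, fibronectin, had overlapping days with 437 to 636 CPM at day 30 and 339.5 to 453 CPM at day 44 (log2 -0.42 ± 0.07 SE, adjusted p = 2.3e-05). Of the mesenchymal markers used to check the cell types, ACTA2 and PDGFRB did not pass the test, VIM, COL1A1 and COL1A2 were below the filter on low counts, and the sum of all 5 was 34.2 to 51.9 CPM at day 30 and 25.9 to 49.3 CPM at day 44.

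Of 14 biliary and progenitor markers, 5 were lower (SPP1, SOX4, SOX9, MMP7 and LAMB3) and 2 higher (CLDN7 and CD24), with a median of log2 -0.15 (-0.04 relative to genes of like length). SPP1, osteopontin, made by biliary cells and in injured liver, was at 37.8 and 39.1 CPM in the parental and 45.8, 41.6 and 60.1 CPM in the transduced libraries at day 30. SPP1 ranged from 12.4 to 26.1 CPM (median 16.1) at day 44 (log2 -1.29 ± 0.17 SE, adjusted p = 1.7e-06). SOX4, a transcription factor of progenitors, was at 216 to 298 CPM at day 30 and 117 to 200.1 CPM at day 44 (log2 -0.82 ± 0.11 SE, adjusted p = 7.2e-06). CLDN7, a tight junction protein, went the other way, with 11.8 to 34.2 CPM at day 30 and 38.2 to 48.4 CPM at day 44 (log2 0.85 ± 0.18 SE, adjusted p = 0.00126). KRT19, the biliary keratin, was at 185 to 219 CPM at day 30 and 186 to 267 CPM at day 44 and did not pass the test (log2 0.15, 95% interval -0.03 to 0.34, adjusted p = 0.285). Its differences were log2 0.42 in the parental and -0.05 in the transduced cells, and in the parental libraries alone it was called higher (adjusted p = 0.0326). The days overlapped for KRT19 alone of these 4 genes.

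Among p53 targets, with a median of log2 -0.14 (-0.07 relative to genes of like length), 5 of 23 were lower (GDF15, MDM2, FAS, XPC and PLK3) and 2 higher (TRIAP1 and TP53I3), and 3 were lower without parental day 30 a, transduced day 30 a or c, transduced day 44 a or parental day 44 b. GDF15, a stress-induced secreted factor, was at 98 and 87.8 CPM in the parental and 72.1, 81.3 and 58.8 CPM in the transduced libraries at day 30. GDF15 ranged from 10.6 to 16.1 CPM (median 12.4) at day 44 (log2 -2.63 ± 0.16 SE, adjusted p = 4.2e-14). MDM2, the ligase that degrades p53, had overlapping days, 203 to 372 CPM at day 30 and 123 to 234 CPM at day 44 (log2 -0.73 ± 0.12 SE, adjusted p = 0.00016). TRIAP1, a small p53-induced inhibitor of apoptosis, was at 59.04 to 82.8 CPM at day 30 and 91.7 to 122 CPM at day 44 (log2 0.50 ± 0.12 SE, adjusted p = 0.00246). GDF15 thus fell while TRIAP1 rose.

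Glucocorticoid-responsive genes were lower in 8 and higher in 2 of 19 tested, with a median of log2 -0.30. Over the 18 with a transcript length it was -0.35, and -0.18 relative to genes of like length. SGK1, a kinase that regulates ion transport, was at 61.4 and 55.9 CPM in the parental and 46.6, 31.2 and 34.9 CPM in the transduced libraries at day 30. SGK1 ranged from 4.99 to 16.5 CPM (median 9.90) at day 44 (log2 -2.20 ± 0.21 SE, adjusted p = 1.7e-09). ERRFI1, a feedback inhibitor of the EGF receptor, was at 248 to 334 CPM at day 30 and 118 to 186 CPM at day 44 (log2 -0.92 ± 0.10 SE, adjusted p = 1.5e-08). DUSP1, above, is also on this list. The 2 members that rose, named after their values were seen, were TSC22D3, the glucocorticoid-induced leucine zipper (log2 0.64 ± 0.09 SE, adjusted p = 4.9e-06), and TAT, tyrosine aminotransferase (log2 1.16 ± 0.33 SE, adjusted p = 0.0269). Of the 11 genes of the aryl hydrocarbon receptor (AhR) battery, which responds to dioxins and related ligands, 5 were lower and 0 higher (median log2 -0.77, and -0.62 relative to genes of like length). AHR, the receptor, was at 23.6 and 15.03 CPM in the parental and 18.96, 19.3 and 23.9 CPM in the transduced libraries at day 30. AHR ranged from 5.73 to 14.9 CPM (median 7.90) at day 44 (log2 -1.19 ± 0.25 SE, adjusted p = 0.00099). TIPARP, which modifies and restrains AhR, was at 41.3 and 17.4 CPM in the parental and 14.4, 11.9 and 13.4 CPM in the transduced libraries at day 30. TIPARP ranged from 1.72 to 5.53 CPM (median 3.89) at day 44 (log2 -2.23 ± 0.32 SE, adjusted p = 6.5e-06). NFE2L2, which encodes the antioxidant regulator NRF2, was at 33.7 to 61.4 CPM at day 30 and 14.6 to 25.9 CPM at day 44 (log2 -1.33 ± 0.19 SE, adjusted p = 4.1e-06). ALDH3A1, an aldehyde dehydrogenase, was at 71.3 to 122 CPM at day 30 and 38.02 to 61.2 CPM at day 44 (log2 -0.90 ± 0.14 SE, adjusted p = 2.1e-05). The days were apart for all 4 of these genes, and the remaining lower member, named after its values were seen, was CYP1A1 (log2 -1.54 ± 0.42 SE, adjusted p = 0.0104).

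The drug-metabolising P450 enzymes and their partners rose in part. Of 26 tested genes, 10 were higher and 1 lower, with a median of log2 0.30 (0.28 relative to genes of like length), 0.01 in parental and 0.49 in transduced cells. CYP2E1, which oxidises ethanol and paracetamol, was at 209 and 222 CPM in the parental and 169, 145 and 185 CPM in the transduced libraries at day 30. CYP2E1 ranged from 386 to 683 CPM (median 537) at day 44 (log2 1.43 ± 0.08 SE, adjusted p = 1.4e-14). CYP2C8, which oxidises arachidonic acid and several drugs, was at 199.5 and 145 CPM in the parental and 134, 99.5 and 103 CPM in the transduced libraries at day 30. CYP2C8 ranged from 202 to 382 CPM (median 295) at day 44 (log2 1.01 ± 0.10 SE, adjusted p = 3.7e-09). CYB5A, the electron donor cytochrome b5, was at 672 and 777 CPM in the parental and 584, 582 and 684 CPM in the transduced libraries at day 30. CYB5A ranged from 898 to 1342 CPM (median 1147) at day 44 (log2 0.74 ± 0.06 SE, adjusted p = 3.5e-10). Each of these 3 genes was higher in all day 44 libraries than in any of day 30. CYP2B6, a classical target of the receptor CAR, was at 44.5 to 74.96 CPM at day 30 and 84.9 to 155 CPM at day 44 (log2 1.00 ± 0.18 SE, adjusted p = 0.00148). CYP3A4, the main drug-oxidising P450 of adult liver, overlapped between the days, with 2210 and 2334 CPM in the parental and 1269, 1025 and 1256 CPM in the transduced libraries at day 30, and 3262, 3251 and 2825 CPM in the parental and 1620, 1826 and 2038 CPM in the transduced libraries at day 44. Within each genotype every day 44 library was above every day 30 library (log2 0.55 ± 0.07 SE, adjusted p = 1.3e-05), while with all 30 groups of the series fitted the adjusted p was 0.0615. CYP2D6, the transduced gene, did not pass the test (log2 0.39, 95% interval -0.36 to 1.14, adjusted p = 0.555).

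At day 32 the means of these enzymes were below those of day 30, and at day 37 they were above them. CYP3A4 was at 226 ± 44.2 CPM at day 32 without DMSO, 427 ± 50.1 CPM at day 32 with DMSO and 2826 ± 620 CPM at day 37 (SD, n = 6 each). CYP2B6 was at 13.4 ± 4.38 CPM at day 32 without DMSO, 32.1 ± 11.1 CPM at day 32 with DMSO and 113 ± 30.1 CPM at day 37 (SD, n = 6 each). CYP2E1 was at 80.3 ± 28.6 CPM at day 32 without DMSO, 157 ± 35.2 CPM at day 32 with DMSO and 395 ± 58.1 CPM at day 37 (SD, n = 6 each).

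Of 33 conjugating (phase II) enzymes, 17 were higher and 3 lower at day 44, the latter UGT1A1, UGT2A3 and SULT1B1. The median was log2 0.23, and 0.04 relative to genes of like length. GSTM4, a glutathione transferase, was at 204 and 177 CPM in the parental and 187, 203 and 238 CPM in the transduced libraries at day 30. GSTM4 ranged from 344 to 444 CPM (median 381) at day 44 (log2 0.93 ± 0.09 SE, adjusted p = 9.1e-10). GLYATL1, an acyltransferase that conjugates glutamine, was at 3.34 to 9.45 CPM at day 30 and 13.6 to 21.2 CPM at day 44 (log2 1.92 ± 0.28 SE, adjusted p = 8.8e-06). GSTO1, an omega-class glutathione transferase, was at 172 to 220.1 CPM at day 30 and 244 to 289.8 CPM at day 44 (log2 0.52 ± 0.08 SE, adjusted p = 3.4e-05). All 3 were apart between the days. Among glutathione transferases and other multigene families, near-identical copies may share reads. Of 33 other phase I enzymes, 7 were higher and 2 lower (AKR1C1 and AOX1), with a median of log2 0.10 (0.17 relative to genes of like length), and 3 were higher without the parental day 30 replicate a. PON1, which hydrolyses lactones and organophosphates, was at 88.3 to 134 CPM at day 30 and 136 to 227 CPM at day 44 (log2 0.66 ± 0.10 SE, adjusted p = 1.7e-05). ADH1A, an alcohol dehydrogenase with close copies, was at 24.5 to 49.6 CPM at day 30 and 46.2 to 93.1 CPM at day 44 (log2 0.85 ± 0.14 SE, adjusted p = 3.4e-05). AKR1C1, a ketosteroid reductase, was lower, at 964 to 1197 CPM at day 30 and 866 to 968 CPM at day 44 (log2 -0.25 ± 0.06 SE, adjusted p = 0.00124), and its adjusted p was 0.351 with the library of 505 counts kept in.

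Of 21 transporters, 3 were higher (14.3%), SLC22A7 and ABCG8 among them, and 2, ABCB1 and SLC27A2, were lower (9.52%). Over all genes tested 7.98% were higher and 8.28% lower. The transporters had a median of log2 0.08 (0.16 relative to genes of like length). SLC22A7, which takes up organic anions, was at 49.6 and 49.3 CPM in the parental and 41.2, 42.3 and 32.1 CPM in the transduced libraries at day 30. SLC22A7 ranged from 73.9 to 119 CPM (median 89.3) at day 44 (log2 1.11 ± 0.13 SE, adjusted p = 1e-07). ABCB1, the efflux pump P-glycoprotein, was lower, at 57.5 to 94.99 CPM at day 30 and 38.1 to 67.3 CPM at day 44 (log2 -0.54 ± 0.12 SE, adjusted p = 0.00148).

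Secreted plasma proteins were higher in 20 and lower in 3 of 37 tested, with a median of log2 0.35 (0.33 relative to genes of like length). TF, the iron carrier transferrin, was at 2411 and 2360 CPM in the parental and 2073, 1569 and 1861 CPM in the transduced libraries at day 30. TF ranged from 2743 to 4090 CPM (median 3304) at day 44 (log2 0.66 ± 0.06 SE, adjusted p = 5e-10). HPX, which carries haem, was at 852 to 1783 CPM at day 30 and 1462 to 2547 CPM at day 44 (log2 0.52 ± 0.06 SE, adjusted p = 5.5e-08). ALB, albumin, was at 15410 and 15180 CPM in the parental and 12550, 10260 and 11440 CPM in the transduced libraries at day 30. ALB ranged from 9439 to 15620 CPM (median 12145) at day 44 and did not pass the test (log2 -0.10, 95% interval -0.27 to 0.06, adjusted p = 0.441). ALB libraries of the 2 days overlapped. The 3 lower members were IGFBP1, given above, and, named after their values were seen, SELENOP (log2 -0.18 ± 0.05 SE, adjusted p = 0.0111) and ITIH2 (log2 -0.55 ± 0.12 SE, adjusted p = 0.00195). Of 14 apolipoprotein and lipoprotein assembly genes, 5 were higher and 3 lower, with a median of log2 0.18 (0.11 relative to genes of like length). APOC3, an inhibitor of triglyceride clearance and one of the most abundant transcripts here, was at 17750 and 18420 CPM in the parental and 13870, 12590 and 14940 CPM in the transduced libraries at day 30. APOC3 ranged from 28470 to 43760 CPM (median 35035) at day 44 (log2 1.14 ± 0.05 SE, adjusted p = 7.4e-10). APOC1 was at 1925 to 2393 CPM at day 30 and 3386 to 4581 CPM at day 44 (log2 0.87 ± 0.05 SE, adjusted p = 1.7e-15), and APOA2, the second protein of high-density lipoprotein, was at 137 to 176 CPM at day 30 and 209.9 to 323 CPM at day 44 (log2 0.81 ± 0.09 SE, adjusted p = 4.3e-08). The days did not overlap for these 3 genes, and APOA1 and APOE were the other members that rose. The lower members included, named after their values were seen, SORT1 (log2 -0.57 ± 0.13 SE, adjusted p = 0.00203) and APOB, which has a very long transcript (log2 -0.98 ± 0.16 SE, adjusted p = 0.00303).

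FABP1, the fatty acid carrier of the hepatocyte cytoplasm, was at 1224 and 1424 CPM in the parental and 859, 693 and 872 CPM in the transduced libraries at day 30. FABP1 ranged from 3194 to 5427 CPM (median 4475) at day 44 (log2 2.04 ± 0.07 SE, adjusted p = 2.3e-14). THRSP, which promotes fatty acid synthesis in response to thyroid hormone and carbohydrate, was at 9.45 and 5.41 CPM in the parental and 6.59, 4.08 and 7.30 CPM in the transduced libraries at day 30. THRSP ranged from 33.2 to 58.3 CPM (median 47.2) at day 44 (log2 2.82 ± 0.21 SE, adjusted p = 9.4e-12). These were the largest rises by log2 change among genes of at least 20 CPM, 7.04-fold for THRSP and 4.10-fold for FABP1. Of 29 genes of fatty acid oxidation and ketogenesis, 11 were higher and 2, PDK4 and CPT2, lower (median log2 0.19, and 0.27 relative to genes of like length), and ECHS1, the mitochondrial enoyl-CoA hydratase, was at 320.3 to 405 CPM at day 30 and 583 to 812 CPM at day 44 (log2 0.90 ± 0.07 SE, adjusted p = 6.4e-11). Of 26 genes of lipid synthesis and droplets, 9 were higher and 1, DGAT1, lower (median log2 0.19, and 0.28 relative to genes of like length), and 5 were higher without the parental day 30 replicate a. G0S2, an inhibitor of the droplet lipase ATGL, was at 46.3 to 80.3 CPM at day 30 and 76.03 to 133 CPM at day 44 (log2 0.74 ± 0.13 SE, adjusted p = 0.00012). HILPDA, a droplet protein, was at 7.08 to 13.2 CPM at day 30 and 10.01 to 25 CPM at day 44 (log2 0.92 ± 0.26 SE, adjusted p = 0.0115), and its call was lost without the transduced day 44 replicate b.

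Sterol synthesis and uptake genes were higher in 8 and lower in 1 of 26 (median log2 0.25, both as such and relative to genes of like length). FDPS, which makes farnesyl diphosphate, was at 745 and 779 CPM in the parental and 618, 475 and 621 CPM in the transduced libraries at day 30. FDPS ranged from 1005 to 1587 CPM (median 1259.5) at day 44 (log2 0.94 ± 0.07 SE, adjusted p = 4.7e-12). ERG28, which tethers sterol enzymes, was at 224 to 306 CPM at day 30 and 337 to 453 CPM at day 44 (log2 0.44 ± 0.08 SE, adjusted p = 0.00011). In bile acid synthesis and conjugation 5 of 17 genes were higher (CYP8B1, SCP2, AKR1C4, AMACR and ACOX2) and 2 lower (CYP7A1 and HSD17B4), with a median of log2 0.19 (0.20 relative to genes of like length). CYP8B1, the 12-alpha-hydroxylase that leads to cholic acid, was at 33.1 and 18.6 CPM in the parental and 26.8, 18.6 and 21.9 CPM in the transduced libraries at day 30. CYP8B1 ranged from 39.1 to 73.96 CPM (median 45.3) at day 44 (log2 1.04 ± 0.18 SE, adjusted p = 8e-05). CYP7A1, the rate-limiting enzyme of the classical pathway, was lower, at 25.98 and 25.9 CPM in the parental and 13.2, 10.8 and 7.30 CPM in the transduced libraries at day 30. CYP7A1 ranged from 3.65 to 10.6 CPM (median 6.84) at day 44 (log2 -1.31 ± 0.26 SE, adjusted p = 0.00053). The days were apart for CYP8B1 and overlapped for CYP7A1. SCP2, a peroxisomal lipid transfer protein, was at 114 to 254 CPM at day 30 and 199 to 371 CPM at day 44 (log2 0.62 ± 0.09 SE, adjusted p = 1.1e-05). Leaving out any of the transduced day 30 libraries, or transduced day 44 a or b, left 3 genes of that list higher.

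Urea cycle and amino acid genes were higher in 16 and lower in 1 of 33 (median log2 0.27, and 0.29 relative to genes of like length). DAO, which oxidises D-amino acids, was at 7.08 and 11.4 CPM in the parental and 9.48, 4.82 and 9.74 CPM in the transduced libraries at day 30. DAO ranged from 26.2 to 50.7 CPM (median 32.99) at day 44 (log2 1.99 ± 0.22 SE, adjusted p = 3.9e-08). AGXT, which detoxifies glyoxylate in peroxisomes, was at 129 and 147 CPM in the parental and 73.4, 79.8 and 55.99 CPM in the transduced libraries at day 30. AGXT ranged from 194 to 403 CPM (median 237) at day 44 (log2 1.40 ± 0.11 SE, adjusted p = 2e-11). ARG1, the last enzyme of the urea cycle, was at 48.4 and 49.9 CPM in the parental and 16.9, 14.8 and 20.7 CPM in the transduced libraries at day 30. ARG1 ranged from 34.4 to 116 CPM (median 70.7) at day 44 (log2 1.24 ± 0.16 SE, adjusted p = 5.8e-07). For ARG1 the parental libraries of day 30 overlapped the transduced ones of day 44, and within each genotype day 44 was higher. PIPOX, a peroxisomal oxidase of pipecolate and sarcosine, was at 21.2 to 54.7 CPM at day 30 and 61.5 to 139 CPM at day 44 (log2 1.31 ± 0.16 SE, adjusted p = 4.6e-07). The single lower member, named after its values were seen, was SDS, serine dehydratase, with 6.73 ± 4.15 CPM (SD, n = 5) at day 30 and 0.708 ± 0.693 CPM (SD, n = 6) at day 44 (log2 -3.06 ± 0.62 SE, adjusted p = 0.00054).

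Of 26 genes of glucose, fructose and glycogen metabolism, 12 were higher and 3 lower, with a median of log2 0.26. Over the 25 with a transcript length it was 0.32, and 0.36 relative to genes of like length. LDHA, a lactate dehydrogenase subunit, was at 1119 and 1084 CPM in the parental and 1142, 927 and 1124 CPM in the transduced libraries at day 30. LDHA ranged from 1577 to 1902 CPM (median 1684) at day 44 (log2 0.67 ± 0.06 SE, adjusted p = 6.4e-10). GAPDH, a glycolytic enzyme, was at 3008 to 4281 CPM at day 30 and 4377 to 5657 CPM at day 44 (log2 0.54 ± 0.05 SE, adjusted p = 8.8e-10). Neither gene overlapped between the days. The 3 lower members, named after their values were seen, were the glucose transporter SLC2A1 (log2 -1.15 ± 0.18 SE, adjusted p = 1.9e-05), the gluconeogenic enzyme PCK1 at 4.42 ± 1.38 CPM (SD, n = 5) at day 30 and 0.564 ± 0.517 CPM (SD, n = 6) at day 44 (log2 -2.73 ± 0.67 SE, adjusted p = 0.00409), and the pyruvate kinase PKM (log2 -0.26 ± 0.08 SE, adjusted p = 0.0212).

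Iron and haem genes were higher in 9 and lower in 2 (TFRC and STEAP3) of 22 (median log2 0.27, and 0.25 relative to genes of like length). FTL, the ferritin light chain, was at 24770 and 26270 CPM in the parental and 22430, 22470 and 27760 CPM in the transduced libraries at day 30. FTL ranged from 42060 to 55000 CPM (median 49375) at day 44 (log2 0.95 ± 0.07 SE, adjusted p = 1.2e-05). GPX2, an epithelial glutathione peroxidase and NRF2 target, was at 215 and 215 CPM in the parental and 111, 109.8 and 138 CPM in the transduced libraries at day 30. GPX2 ranged from 365 to 673 CPM (median 463) at day 44 (log2 1.59 ± 0.08 SE, adjusted p = 1.5e-15). In both genes every day 44 library was above every library of day 30, whereas the transcript of NRF2 itself was lower. Of 27 tested NRF2 targets, 3 were higher, GPX2 and FTL among them, and 5 were lower. Their median was log2 0.04 (-0.03 relative to genes of like length). HULC, a long noncoding RNA of liver, was at 10.02 to 20.6 CPM at day 30 and 50.5 to 74.5 CPM at day 44 (log2 2.00 ± 0.18 SE, adjusted p = 6e-10), and MIR210HG, the host transcript of a hypoxia-induced microRNA, was at 6.01 to 23.01 CPM at day 30 and 19.4 to 60.6 CPM at day 44 (log2 1.72 ± 0.24 SE, adjusted p = 1.1e-05).

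Liver transcription factors and nuclear receptors were higher in 3 (NR1I3, NR1I2 and ESRRA) and lower in 3 (PPARGC1A, AHR and CEBPD) of 27 tested. These shares, 11.1% in each direction, lay near the 7.98% higher and 8.28% lower over all genes tested. The list had a median of log2 -0.08 (-0.05 relative to genes of like length). NR1I3, the xenobiotic receptor CAR, was at 14.2 and 22.3 CPM in the parental and 5.36, 8.54 and 5.68 CPM in the transduced libraries at day 30. NR1I3 ranged from 20.3 to 36.7 CPM (median 29.2) at day 44 (log2 1.37 ± 0.24 SE, adjusted p = 9e-05). PPARGC1A, a coactivator of fasting metabolism, was at 24.8 and 21.6 CPM in the parental and 24.7, 16.3 and 23.1 CPM in the transduced libraries at day 30. PPARGC1A ranged from 9.04 to 11.5 CPM (median 10.6) at day 44 (log2 -1.08 ± 0.22 SE, adjusted p = 0.0005). HNF4A, a master regulator of hepatocyte genes, was at 68.5 and 49.3 CPM in the parental and 260.1, 451 and 356 CPM in the transduced libraries at day 30, and at 108, 99.8 and 370.4 CPM in the parental and 289, 482 and 131 CPM in the transduced libraries at day 44. It did not pass the test (log2 0.50, 95% interval -0.87 to 1.86, adjusted p = 0.674). Its levels were low in the libraries with low component scores, and high in parental day 44 c, whose score was 6.80. The part of that component in the HNF4A values was not tested. NR1I3, PPARGC1A and AHR lost their calls in the parental libraries alone, where NR1I3 differed by log2 0.75 (adjusted p = 0.149).

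Ribosomal protein genes were higher in 31 of 58 and lower in 0, by small amounts, with a median of log2 0.18. Relative to genes of like length the median was 0.02, and the median transcript length was 1150 bases against 3351 over all genes tested. RPL10, RPL15 and RPS14, of the large and small subunits, differed by log2 0.35, 0.33 and 0.34, with adjusted p of 1.3e-06, 5.6e-06 and 1.1e-05. RPL10 was at 3210 to 3713 CPM at day 30 and 4197 to 4718 CPM at day 44. With the library of 505 counts kept in, 0 of these genes were called. Processed pseudogenes of ribosomal proteins may share reads with them.

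The difference between the days did not differ detectably between the genotypes. The test of that difference called 0 of 10467 genes (0%) with edgeR's quasi-likelihood test, where 669 had an unadjusted p under 0.05 and the smallest adjusted p was 0.181. DESeq2 also called 0 genes. There were 2 parental libraries at day 30, and a missed threshold does not show that the lines responded alike. For FABP1 the differences were log2 1.98 in the parental and 2.08 in the transduced cells, and for FOS -4.24 in the parental and -4.34 in the transduced cells. For HNF4A they were 1.74 in the parental and -0.24 in the transduced cells, and for GLYATL1 1.21 in the parental and 2.34 in the transduced cells.

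Thawed cells at the same days gave a matched comparison with 12 libraries, none of them shared with the fresh cells. Of 11069 genes tested, the fresh difference was above the thawed one for 771 genes (6.97%) and below it for 374 (3.38%), with edgeR's quasi-likelihood test of the difference itself. Of the immediate-early genes 0 of 25 were above and 1 below, and for FOS the thawed levels were 139 ± 52.1 CPM at day 30 and 3.59 ± 1.28 CPM at day 44 (SD, n = 6 each). For the P450 list 2 of 26 were above and 1 below. The fresh and thawed falls of DUSP1 differed by 0.04 ± 0.32 SE, adjusted p = 0.966, so no difference was detected for it. The list with most such differences was the ribosomal proteins, with 53 of 58 above. Their mean log2(CPM + 1) was 10.51 ± 0.09 (SD, n = 5) in fresh and 10.95 ± 0.05 (SD, n = 6) in thawed cells at day 30, and 10.66 ± 0.07 and 10.75 ± 0.08 at day 44 (SD, n = 6 each).

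Several metabolic genes had a higher day 44 minus day 30 difference in fresh than in thawed cells. GPX2 differed by log2 1.89 ± 0.11 SE, adjusted p = 5e-18, with thawed levels of 294 ± 50.3 CPM at day 30 and 247 ± 67.9 CPM at day 44. FABP1 differed by 1.41 ± 0.09 SE, adjusted p = 4.9e-11, with thawed levels of 1850 ± 431 CPM at day 30 and 2959 ± 911 CPM at day 44. FTL differed by 1.01 ± 0.09 SE, adjusted p = 6.7e-07. For FTL the thawed levels were 44540 ± 5210 CPM at day 30 and 44440 ± 6530 CPM at day 44. In all 3 genes the thawed mean was above the fresh mean at day 30. In the urea cycle and amino acid list 11 of 33 genes were above and 0 below. The mesenchymal list had 1 of 25 above and 7 below, with FN1 at -1.05 ± 0.11 SE, adjusted p = 8e-10 and thawed levels of 255 ± 33.2 CPM at day 30 and 404 ± 39.4 CPM at day 44. ATRX, a chromatin remodeller, TPR, a nuclear pore protein, and GOLGB1, a Golgi tether, have long transcripts and differed by -2.16, -1.59 and -1.57. The longest 20% of genes took 5.13% to 6.58% of counts in thawed cells at day 30 and 5.86% to 7.53% at day 44, against 7.25% to 8.26% and 5.65% to 6.95% in fresh cells. The fresh minus thawed difference had a Spearman correlation of -0.39 with transcript length over 10672 genes, and the part of length in these differences was not tested.

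**Figure D4:**
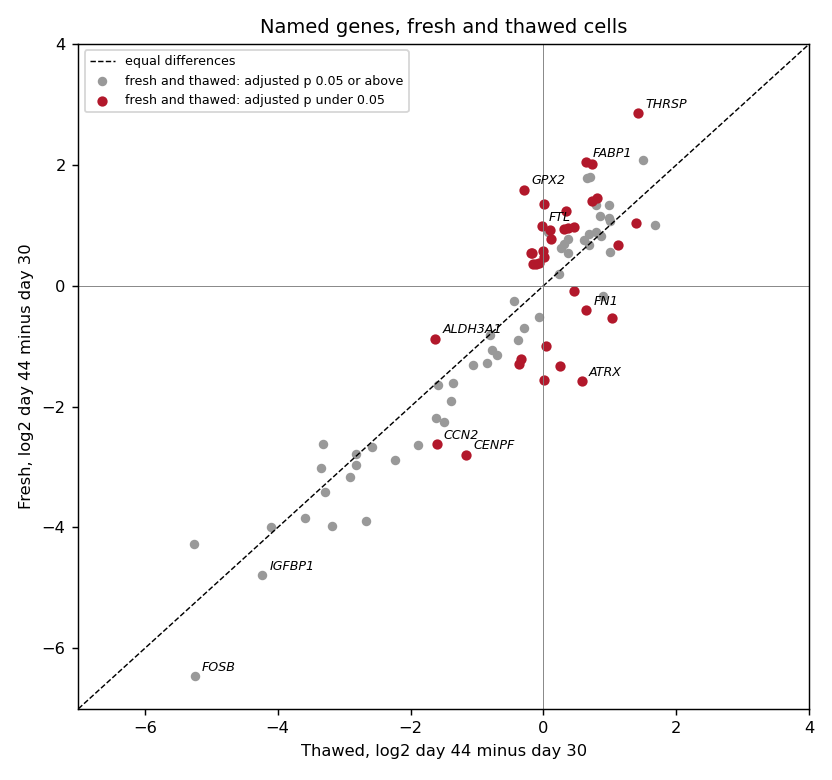
Difference between day 44 and day 30 (log2) of the named genes in fresh cells (vertical axis) and thawed cells (horizontal axis); red points passed the test of the fresh minus thawed difference, grey points did not, and the dashed line marks equal differences. GPX2, FABP1 and THRSP lie above the line, whereas ATRX, FN1 and CENPF lie below it, and FOSB and IGFBP1 did not pass that test.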

How the data were processed

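Pooled 3′-barcoded RNA sequencing (BRB-seq) was measured in 90 libraries. Deposited values are counts per gene for 28307 genes. The submitters' processing notes name BWA 0.7.4.4, mm10 and hg38 without a role. Counting rule, UMI use, strand and annotation are not given in the sources used here. Members and gene lists were chosen with earlier results of these data known. Libraries under 0.25 of the median total were left out, and groups follow the titles. R 4.3.3 and edgeR 4.0.16 were used: TMM scaling, filterByExpr on the 4 groups, robust quasi-likelihood fit with genotype and day, and Benjamini-Hochberg adjustment over all genes tested, tested first on simulated data. CPM used the same scaling, and list levels are mean log2(CPM + 1). Genotype and fresh against thawed differences were tested as interactions, the latter on 23 libraries. Alternatives included DESeq2 1.42.0, other scaling and filters, and leaving out libraries. The 12 largest rises and 12 largest falls with the same sign in both genotypes and a mean of at least 20 CPM were named. Also named were tested members with the smallest p in each of 24 described lists, a fixed panel, and the largest fresh against thawed differences. Upstream sequences and transcript lengths come from RefSeq (GRCh38.p14), in which 27200 gene symbols (96.1%) were found. Some genes that meet this rule are not reported here.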

Additional observations from a re-analysis of the deposited data

Results flagged for a closer look

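Among 184 checks of a named gene's CPM within 1 day, 7 had a library whose gap to its nearest neighbour was large for the range of the group by Dixon's criterion, which chance gives in about 1 in 20 groups. The transduced replicate b of day 30 held GSTO1 at 220.1 CPM (nearest library 182) and LDHA at 927 CPM (nearest 1084). The parental replicate a of day 30 held the aryl hydrocarbon receptor target TIPARP at 41.3 CPM, against 17.4 CPM in the nearest library. At day 44 the transduced replicate c had the lowest HES1, 0.502 CPM, and the highest TCIM and CENPF, each at 13.6 CPM, and it is also the transduced library with the lowest component score, 5.59. The parental replicate c of day 44 had the highest CYP8B1, at 74.0 CPM (nearest 46.8). With each of these libraries left out, all 7 genes remained called.

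For 35 named genes the day 44 minus day 30 difference differed between fresh and thawed cells in edgeR's quasi-likelihood test, over all genes tested. Among genes of lipid, amino acid and carbohydrate metabolism the fresh minus thawed difference was log2 1.43 for THRSP, 1.41 for FABP1, 1.29 for DAO, 0.68 for AGXT, 0.90 for ARG1, 1.35 for CNPY3-GNMT, 0.58 for GAPDH, 0.63 for ECHS1, 0.59 for FDPS and 0.47 for ERG28. Among genes of detoxification and iron it was 1.89 for GPX2, 1.01 for FTL, 0.76 for ALDH3A1, 0.71 for GSTO1, 0.52 for GSTM4, 0.66 for CYP2E1 and 0.65 for CYB5A, but -0.36 for CYP2C8. ALDH3A1 fell in fresh cells, and its thawed mean was 78.1 CPM at day 30 and 25.8 CPM at day 44, so 0.76 is a smaller fall in fresh cells. The plasma proteins TF and ALB had differences of -0.45 and -0.54. This measure was -1.04 for TGFBI, -0.87 for LAMA3, -1.05 for FN1 and -1.02 for CCN2. NFE2L2 had -0.93 and CENPF -1.63, whereas CLDN7 had 0.81 and TRIAP1 0.73. The ribosomal genes RPL10, RPL15 and RPS14 had 0.43, 0.46 and 0.52. ATRX, TPR, GOLGB1 and the Golgi mannosidase MAN2A1 had -2.16, -1.59, -1.57 and -1.56. The median of this measure was 0.32 in the shortest and -0.33 in the longest 20% of genes by transcript length.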

How the results depend on the processing

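The counts of genes higher and lower at day 44 stayed within 1.5 times of the values in the report under relative log expression scaling, 2 other filters, DESeq2, the nearly empty library kept, all 30 groups fitted, the replicate block and the component score as a covariate, the last chosen after seeing the data. Leaving out 1 library gave 663 to 828 genes higher and 633 to 828 lower, and 83 to 96 higher and 261 to 370 lower beyond 2-fold. With fewer samples, the parental libraries alone gave 445 higher and 398 lower, and the transduced libraries alone gave 275 higher and 313 lower, with 59 higher and 185 lower beyond 2-fold. The genotype difference was called for 0 to 1 genes with 1 library left out, for 39 with no filter on low counts, for 1 with 30 groups fitted and for 7 with the component score; the cause was not tested. The fresh and thawed difference was called for 753 genes with 30 groups fitted, and for 790 to 1116 with 1 library left out. Over 15 pairs of the same replicate letter, deviations from the group mean had a median correlation of 0.0057, from -0.64 to 0.27. Over 30 pairs of other letters the median was -0.0103. Deviations cancel within a group of 2 or 3 libraries, so these medians cannot show whether letters pair libraries. The replicate block gave 764 genes higher and 775 lower, of which 1509 were called without it. No named gene reversed. The call of MAN2A1 was lost in most alternatives, AKR1C1 in 3 and CYP3A4 with 30 groups fitted. With the parental libraries alone NR1I3, GLYATL1, ABCB1, PPARGC1A, AHR and HILPDA lost their calls and KRT19 gained one, and with the transduced libraries alone CLDN7, TRIAP1, CYP7A1 and ERG28 lost theirs. RPL10, RPL15 and RPS14 lost theirs with the nearly empty library kept. Counts of lists were mostly smaller in 1 line alone, with 10 phase II enzymes higher in parental and 8 in transduced cells, 10 and 8 urea cycle and amino acid genes, 11 ribosomal protein genes in each, and 1 sterol gene in transduced cells. Of the 33 other phase I enzymes, 0 were lower with that library kept or with 30 groups fitted. In simulated counts of 10467 genes, 200 were changed. Of these, 2-fold changes were recovered for 77.6% of 67 genes and 1.5-fold changes for 13.4% of 67, and 10 unchanged genes were called. Smaller changes may thus be missed at this depth. The simulation used the same dispersion for all genes and changed fewer genes than were called here, so its shares may not carry over to these data.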

Other observations

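Counts of further gene groups are given here, beside shares over all genes tested of 7.98% higher and 8.28% lower. The heat shock list, with 5.88% in each direction, and the metallothionein list, with 10% in each, lay near these shares. Of 20 unfolded protein response genes, 4 were lower and 1 higher, and the lower ones were the chaperones HSPA5, HSP90B1, PDIA6 and CANX; 2 were lower under DESeq2, with the nearly empty library kept or with 30 groups fitted. Both KRT8 and KRT18, the simple-epithelial keratins, were lower among 4 keratins tested, whereas 0 keratins were lower with the nearly empty library kept, with 30 groups fitted or in the parental libraries alone. Of 21 interferon response genes, 4 were higher (IFITM1, IFITM2, IFITM3 and ISG15) and 1 was lower (GBP1). Among 21 acute phase genes 7 were higher and 2 lower, the latter LCN2 and SLPI, and 3 were higher with the nearly empty library kept. The median was log2 0.17 for the interferon list and 0.14 for the acute phase list. Relative to genes of like length these medians were 0.04 and 0.03. Of 27 NRF2 targets, 3 were higher (GPX2, FTL and FTH1) and 5 lower (GCLC, TXNRD1, TKT, AKR1C1 and CBR3). The coagulation list had 3 of 21 genes higher and 5 lower, and the complement list 3 of 25 higher and 4 lower. Of 18 genes of the ATF4 amino acid stress response, 6 were higher and 3 lower. The heat shock, metallothionein and HLA lists had 1 higher and 1 lower of 17, 1 and 1 of 10, and 0 and 2 of 15. In the hypoxia list 1 of 15 was higher and 4 lower, in the IGF axis 0 of 11 higher and 3 lower, and of 5 foetal liver markers 0 were called in either direction. The genes in this paragraph were named after their values were seen.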
